A study of Homo sapiens with 2 samples.

Results

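Basement membranes are thin sheets of extracellular matrix on which epithelial, endothelial and muscle cells rest. Laminin trimers, each of an alpha, a beta and a gamma chain, form one of their networks, and nidogens, perlecan and agrin tie this network to the others and to the cell surface. Elastic fibers, which let tissues recoil, hold an elastin core laid down on microfibrils of fibrillin with the help of fibulins. Several of the latent TGF-beta binding proteins (LTBPs) anchor the growth factor TGF-beta in the same matrix. In the developing kidney, nephronectin and the FRAS1/FREM proteins lie at the border between the ureteric epithelium and the mesenchyme. The chromatin accessibility of 39 such genes, of 20163 protein-coding genes in all, was examined in G401 cells. The genes were taken from a list of names that sets no condition on measured values, though the list was drawn up with earlier results of these data known. Each of the 39 symbols matched 1 protein-coding gene. They comprise 10 laminin chains, 6 genes for nidogens, proteoglycans and multiplexins (collagens that carry glycosaminoglycans), 8 fibrillin, elastin and LTBP genes, 5 fibulins, 4 genes of the FRAS1/FREM complex and nephronectin, and 6 matricellular and other genes. The collagen IV chains are not among them, and TINAGL1, SPARC, FN1 and TNC belong to the wider extracellular matrix.

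G401 is an established cell line of malignant rhabdoid tumor, a childhood cancer defined by loss of the chromatin remodeling subunit SMARCB1. Cells were kept for 3 days in DMSO (the vehicle) or in 3 µM MAK683. MAK683 is an inhibitor that binds EED within Polycomb repressive complex 2 (PRC2), and stops the methylation of histone H3 at lysine 27 that PRC2 places on silent genes. The comparison asks where chromatin accessibility differs once PRC2 is inhibited. ATAC-seq was performed on 1 library per group, so that the spread between replicates is unknown and values are given without p-values. Tags left after filtering numbered 16598348 for DMSO and 18265284 for MAK683, and 114060 and 161184 peaks lay on the main chromosomes. No peak was listed over SMARCB1, or within 3 kb of it, in either library.

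Promoter accessibility was taken as the height of the tallest peak that reached within 3 kb of a gene's transcription start site (TSS), in tags over the summit per 1000000 filtered tags (RPM). One tag equals 0.0602 RPM in DMSO and 0.0547 RPM in MAK683, and the lowest listed peak held 6 tags in both. Intervals are exact (Clopper-Pearson) 95% intervals of the summit tags among the filtered tags, and cover counting error only. A ratio was formed only where both libraries had a peak, and its interval is the exact one for 2 counts. Neither kind of interval covers the choice of the tallest peak, which was made separately in each library. Whether more cells opened a promoter, or the same cells opened it more, cannot be told apart in bulk data.

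The sequences below are the 200 bases around the summit of the tallest MAK683 promoter peak, read from GRCh37 (hg19) on the strand of the gene. LAMB1, FBN1, FBN2 and FRAS1 are shown because the study names them, and EFEMP1 and TINAGL1 because their height ratios are the highest and the lowest of the set. Capitals mark matches on either strand to the binding motif of AP-1 (TGANTCA), to the GC box bound by SP1 (GGGCGG), to the motif of the TEAD factors (GGAATG), to the box bound by NF-Y (CCAAT), and to the TATA box of core promoters (TATAAA), and none of these motifs contains another. The windows lie at chr7:107643068-107643267 for LAMB1 (minus strand), chr15:48938099-48938298 for FBN1 (minus), chr5:127874752-127874951 for FBN2 (minus), chr4:78977893-78978092 for FRAS1 (plus), chr2:56150550-56150749 for EFEMP1 (minus) and chr1:32043051-32043250 for TINAGL1 (plus).
LAMB1: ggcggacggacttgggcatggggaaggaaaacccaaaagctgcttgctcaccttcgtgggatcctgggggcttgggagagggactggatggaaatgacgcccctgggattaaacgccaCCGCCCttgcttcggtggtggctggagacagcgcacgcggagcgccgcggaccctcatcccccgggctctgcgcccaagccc
FBN1: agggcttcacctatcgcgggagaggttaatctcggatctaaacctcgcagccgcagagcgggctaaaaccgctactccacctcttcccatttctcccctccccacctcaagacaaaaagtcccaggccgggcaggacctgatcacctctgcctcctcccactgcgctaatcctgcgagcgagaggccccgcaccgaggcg
FBN2: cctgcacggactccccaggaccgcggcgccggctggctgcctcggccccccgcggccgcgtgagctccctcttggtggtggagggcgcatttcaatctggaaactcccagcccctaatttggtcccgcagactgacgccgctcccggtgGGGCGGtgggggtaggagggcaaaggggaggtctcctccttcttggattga
FRAS1: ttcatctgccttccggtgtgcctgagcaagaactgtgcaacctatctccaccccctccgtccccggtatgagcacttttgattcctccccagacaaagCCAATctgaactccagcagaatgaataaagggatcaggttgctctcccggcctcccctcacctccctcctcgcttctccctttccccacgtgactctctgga
EFEMP1: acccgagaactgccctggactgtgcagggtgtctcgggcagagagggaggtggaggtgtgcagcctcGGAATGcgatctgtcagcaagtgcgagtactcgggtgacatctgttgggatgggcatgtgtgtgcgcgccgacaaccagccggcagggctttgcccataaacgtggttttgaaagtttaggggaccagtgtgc
TINAGL1: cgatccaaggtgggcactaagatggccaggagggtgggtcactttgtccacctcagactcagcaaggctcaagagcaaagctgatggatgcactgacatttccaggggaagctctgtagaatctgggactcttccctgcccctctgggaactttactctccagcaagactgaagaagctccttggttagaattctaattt

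The next windows show 3 genes whose promoters had a peak only in MAK683, each with 18 tags. They were chosen after their values were seen. They lie at chr6:129203782-129203981 for LAMA2 (plus strand), chr14:70344359-70344558 for SMOC1 (plus) and chr9:117881250-117881449 for TNC (minus).
LAMA2: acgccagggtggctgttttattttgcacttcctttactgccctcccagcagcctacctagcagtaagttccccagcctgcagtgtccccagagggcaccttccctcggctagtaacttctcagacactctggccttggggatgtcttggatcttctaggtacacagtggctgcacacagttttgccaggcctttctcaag
SMOC1: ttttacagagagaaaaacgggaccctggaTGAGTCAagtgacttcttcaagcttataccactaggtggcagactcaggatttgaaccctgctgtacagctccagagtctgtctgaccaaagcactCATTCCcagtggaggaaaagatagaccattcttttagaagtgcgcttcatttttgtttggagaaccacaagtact
TNC: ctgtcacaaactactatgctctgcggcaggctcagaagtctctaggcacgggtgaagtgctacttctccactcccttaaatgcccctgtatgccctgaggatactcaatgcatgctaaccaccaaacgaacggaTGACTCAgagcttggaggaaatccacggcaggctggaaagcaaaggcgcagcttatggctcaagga

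Of 38 members with a MAK683 promoter peak, SMOC1 and TNC held the AP-1 motif in this window (5.26%), against 2.68% of 15873 protein-coding genes with a MAK683 promoter peak. The GC box was found in 39.5% of the members' windows against 52.6%, the TEAD motif in 13.2% against 7.81%, the CCAAT box in 15.8% against 25.6%, and the TATA box in 0 against 2.12%. The 9 windows held from 1 (TINAGL1) to 16 (FBN2) CpG dinucleotides, with 2 at LAMA2 and SMOC1, 6 at FRAS1 and TNC, 11 at EFEMP1, 14 at FBN1 and 15 at LAMB1.

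A promoter peak was listed for 32 of the 39 genes in DMSO and for 38 in MAK683, beside 14658 and 15873 of all 20163 protein-coding genes. Of 38 with any peak, 6 had one only in MAK683: LAMA2, LAMB3, COL15A1, FREM1, SMOC1 and TNC. Over all protein-coding genes with a peak in either library, this share was 9.76%. No member had a peak only in DMSO, where the share over all genes was 2.28%. LAMA1, the laminin alpha chain of early embryonic basement membranes, had no peak in either library. Of the 32 genes with a peak in both libraries, 13 were higher and 19 lower in MAK683, and over all genes 13.5% were higher. On the log2 scale, the median ratio (MAK683 over DMSO) was -0.18 for the members (95% interval of the median -0.40 to 0.25) and -0.46 for all protein-coding genes. Relative to this all-gene median, 25 of the 32 members were higher and 7 lower, where all genes divide evenly by definition, ties aside. Height at least doubled for 2 members (LAMA4 and EFEMP1), against 1.11% of all genes, and at least halved for 2 members (LAMB2 and TINAGL1), against 5.89%.

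**Figure D1:**
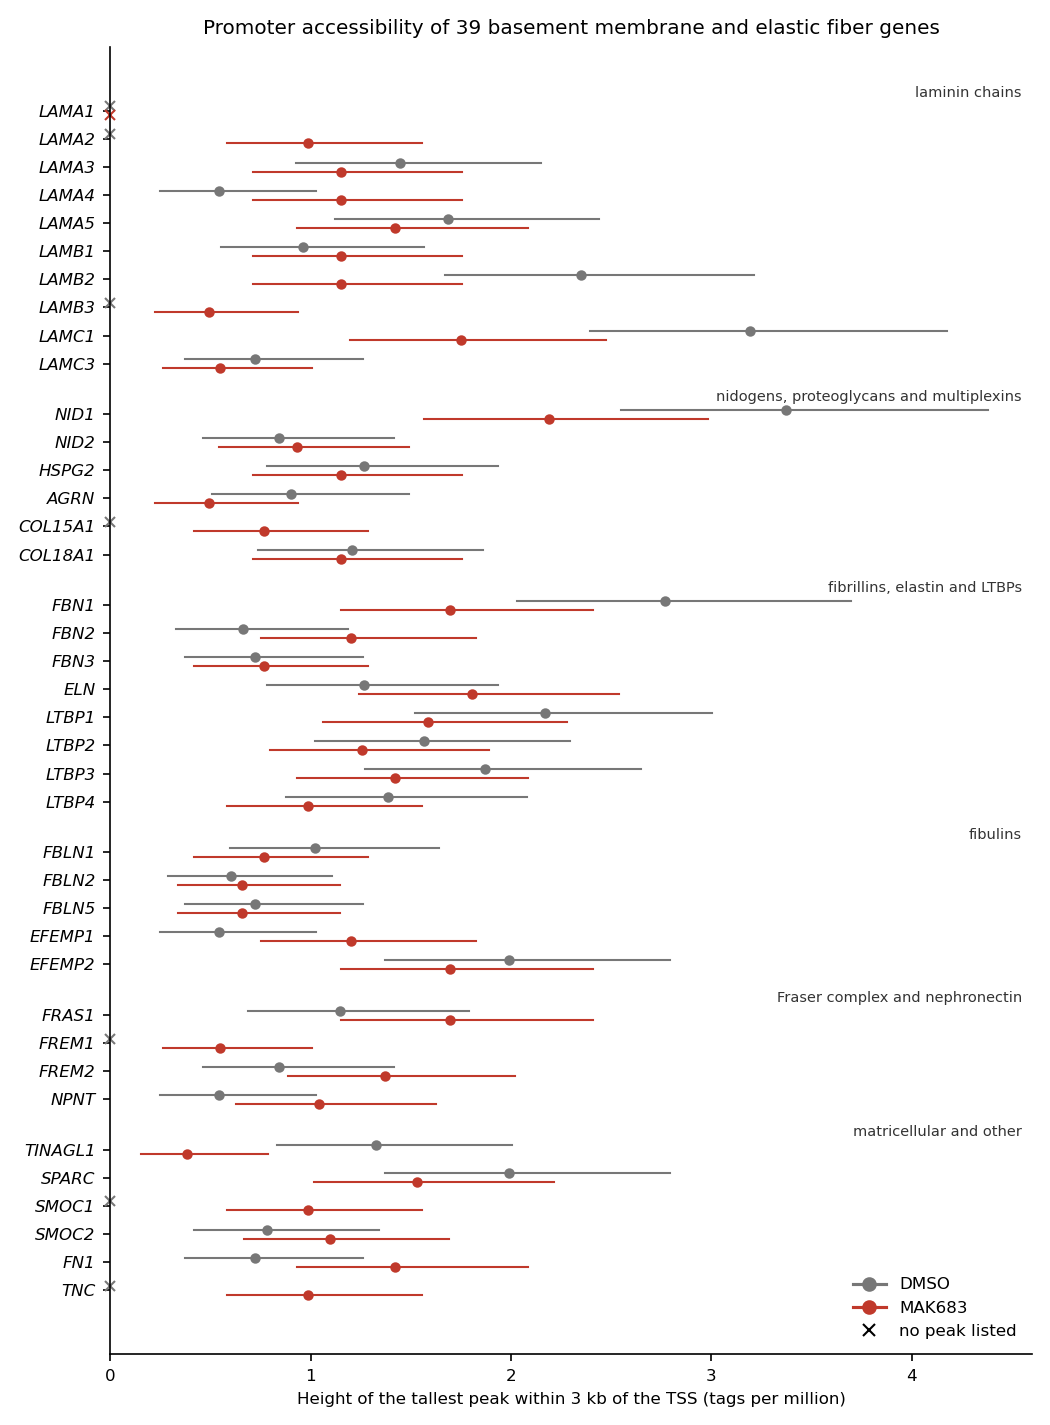
Height of the tallest promoter peak (x axis, RPM, linear) of each of the 39 genes in DMSO (grey) and MAK683 (red), grouped by role; lines are 95% counting intervals of 1 library each, and a cross means that no peak was listed. LAMA2, LAMB3, COL15A1, FREM1, SMOC1 and TNC have a MAK683 value only, while NID1, LAMC1 and FBN1 are the tallest in DMSO and lower in MAK683.

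Counting intervals place these ratios. No member's interval lay wholly above 0 (0.819% of all genes did), whereas 5 members lay wholly below it (LAMB2, LAMC1, NID1, FBN1 and TINAGL1; 16.9% of all genes). Against the all-gene median, 8 members lay wholly above (LAMA4, FBN2, ELN, EFEMP1, FRAS1, FREM2, NPNT and FN1), which is 8 of 32 beside 3.84% of all genes. TINAGL1 alone lay below it. That share is not matched for DMSO height. LAMA4, FBN2, EFEMP1, FREM2, NPNT and FN1 had 9 to 14 tags in DMSO. Their intervals included 0.125, the median of all genes with 6 to 14 DMSO tags. The intervals of ELN and FRAS1 lay above -0.34, the median of all genes with 15 to 24 DMSO tags.

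In DMSO the members' promoters were lower than those of most genes, with a median of 1.175 RPM against 1.93 RPM. The genes were therefore also set beside genes of like DMSO height, in classes drawn after the values were seen. Of 7 members without a DMSO peak, 6 had one in MAK683 (85.7%), against 28.8% of 5505 such genes. Of 12 members with 6 to 14 tags in DMSO, 10 were higher in MAK683 (83.3%) with a median log2 ratio of 0.59, against 58% and 0.125 over 1738 genes. With 15 to 24 tags in DMSO, 3 of 10 members were higher and the median was -0.23, against 22.5% and -0.34. None of the 10 members with 25 tags or more was higher in MAK683, with a median of -0.42, against 3.2% and -0.54. The log2 ratios of the members thus ran from higher to lower with DMSO height, and so did those of all genes. DMSO height is the denominator of the ratio, so that classes drawn on it are not independent of the ratio, and only the members' values beside those of all genes in the same class are to be read. How far DMSO height accounts for the members' values was not tested.

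**Figure D2:**
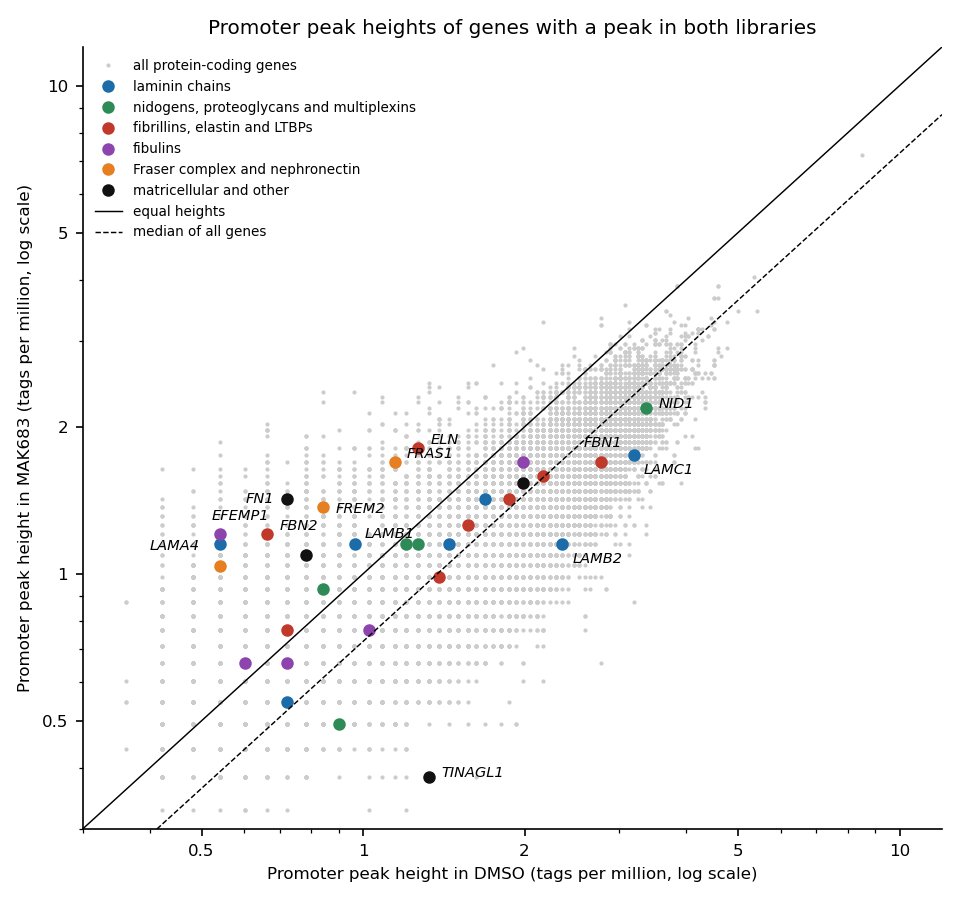
Promoter peak height in DMSO (x axis) against MAK683 (y axis), both in RPM on log scales, for the genes with a peak in both libraries; each point is 1 gene, the members are colored by role, and heights fall on steps because tags are whole. LAMA4, EFEMP1, FN1 and FBN2 lie above the line of equal heights, and LAMB2, LAMC1, NID1, FBN1 and TINAGL1 lie below it.

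The laminin chains differed in both directions. LAMA2, the alpha chain of muscle and peripheral nerve, had no DMSO peak and a MAK683 peak of 18 tags or 0.985 RPM (0.584 to 1.56) at chr6:129203365-129204337, which spanned the TSS and had its summit upstream of it. LAMA4, the alpha chain of vessel walls, had 9 tags (0.542 RPM) in DMSO and 21 tags (1.15 RPM) in MAK683, a log2 ratio of 1.08 (-0.10 to 2.40). Its peak was 230 bp wide in DMSO (chr6:112575079-112575308) and 1921 bp wide in MAK683 (chr6:112574677-112576597). LAMB3, a beta chain of the laminin under the epidermis, had 9 tags (0.493 RPM) in MAK683 only, in a 262-bp peak 1344 bp into the gene.

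Other laminin chains stood the other way or near their DMSO height. LAMC1, the gamma chain of most laminins, had 53 tags (3.19 RPM) in DMSO and 32 tags (1.75 RPM) in MAK683, a log2 ratio of -0.87 (-1.55 to -0.21). LAMB2, a beta chain of the glomerular and synaptic basement membranes, had 39 tags (2.35 RPM) and 21 tags (1.15 RPM), a ratio of -1.03 (-1.87 to -0.23). The intervals of LAMC1 and LAMB2 lay below 0 but included the all-gene median. LAMB1, the other main beta chain, had 16 tags (0.964 RPM) in DMSO and 21 tags (1.15 RPM) in MAK683, and its ratio of 0.25 (-0.75 to 1.29) was within counting error of both 0 and the all-gene median. The LAMB1 peaks, at chr7:107641939-107643868 and chr7:107642006-107644278, had their summits in an exon, 494 and 438 bp downstream of the TSS. LAMA3, LAMA5 and LAMC3 had ratios between -0.40 and -0.245, with intervals that include 0. In all, 2 of 7 laminin genes with both peaks were higher, and their median was -0.33.

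Among the genes that join the networks, NID1 (nidogen, which bridges laminin and collagen IV) had the tallest promoter of the set in both libraries. It held 56 tags (3.37 RPM) in DMSO and 40 tags (2.19 RPM) in MAK683, a log2 ratio of -0.62 (-1.25 to -0.01) that includes the all-gene median. Its paralog NID2 had 14 and 17 tags, a ratio of 0.14. HSPG2 (perlecan) had 21 tags in both libraries at overlapping peaks downstream of the TSS. A DMSO peak 580 bp upstream of the TSS also held 21 tags, and the MAK683 peak there held 11. COL18A1 (collagen XVIII, the source of endostatin) had 20 tags in DMSO and 21 in MAK683, at tallest peaks that did not overlap. AGRN (agrin) had 15 tags in DMSO and 9 in MAK683. COL15A1, a multiplexin of muscle and capillary basement membranes, had no DMSO peak and 14 tags (0.767 RPM, 0.419 to 1.29) in MAK683, with 2184 bases of its window inside peaks.

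Of the elastic fiber genes, FBN1, the main fibrillin of adult tissues, had 46 tags (2.77 RPM) in DMSO and 31 tags (1.70 RPM) in MAK683. Its log2 ratio was -0.71 (-1.41 to -0.02), with an interval that included the all-gene median. FBN2, the fibrillin made mostly before birth, had 11 tags (0.663 RPM) in DMSO and 22 tags (1.20 RPM) in MAK683, a ratio of 0.86 (-0.24 to 2.05), which lay above the all-gene median. The FBN2 summits lay 527 and 914 bp upstream of the TSS used, in an intron of a longer transcript whose own TSS, 120.9 kb away, had no peak in either library. FBN1 was the taller of the pair in both libraries, and the gap between them was smaller in MAK683. ELN, elastin itself, had 21 tags (1.265 RPM) in DMSO and 33 tags (1.81 RPM) in MAK683, a ratio of 0.51 (-0.32 to 1.38), and was highest at 1160 bp before the TSS in both libraries. The 4 LTBP genes had ratios between -0.49 and -0.31, close to the all-gene median, and none of their intervals excluded 0. The summits compared lay 2625 bp (DMSO) and 3041 bp (MAK683) from the TSS at LTBP2. They lay 2761 and 2517 bp away at LTBP3, and 2910 and 2908 bp away at LTBP4. The peaks with summits nearest the TSS held 19 tags in DMSO and 8 in MAK683 at LTBP2. Such peaks held 15 and 11 tags at LTBP3. At LTBP4 the nearest DMSO summit, 1434 bp away, held 13 tags, and no MAK683 peak was listed there. The only MAK683 peak in the LTBP4 window was the one at 2908 bp, with 18 tags.

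Fibulins bind elastin and basement membrane proteins. EFEMP1 (fibulin-3) had the highest ratio of the set, with 9 tags (0.542 RPM, 0.248 to 1.03) in DMSO and 22 tags (1.20 RPM, 0.755 to 1.82) in MAK683, a log2 ratio of 1.15 (-0.02 to 2.45). Its DMSO peak at chr2:56149871-56150315 lay inside the wider MAK683 peak at chr2:56149221-56151393. EFEMP2 (fibulin-4), which is needed for elastin cross-linking, had 33 and 31 tags. FBLN1, FBLN2 and FBLN5 had 10 to 17 tags in DMSO and 12 to 14 in MAK683, with every interval including 0.

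The Fraser complex and nephronectin had taller promoter peaks in MAK683 at each of the 4 genes, within counting error of 0 for those with a ratio. FRAS1, mutated in Fraser syndrome with skin blistering and kidney agenesis, had 19 tags (1.145 RPM) in DMSO and 31 tags (1.70 RPM) in MAK683, a log2 ratio of 0.57 (-0.30 to 1.47). FREM2, its partner, had 14 tags (0.8435 RPM) and 25 tags (1.37 RPM), a ratio of 0.70 (-0.30 to 1.76). NPNT (nephronectin), the ligand of integrin alpha8 beta1 in kidney budding, had 9 tags (0.542 RPM) and 19 tags (1.04 RPM), a ratio of 0.94 (-0.27 to 2.27). FREM1 had no DMSO peak and 10 tags (0.5475 RPM, 0.2625 to 1.01) in MAK683, highest at 122 bp before the TSS. The intervals of FRAS1, FREM2 and NPNT included 0 and lay above the all-gene median. Peaks covered 3645 bases of these 4 windows in DMSO and 11415 in MAK683.

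The matricellular genes held 2 of the 3 tallest promoters seen only in MAK683. TNC (tenascin-C), a matrix protein of embryos and healing wounds, had 4 MAK683 peaks and none in DMSO, the tallest with 18 tags (0.985 RPM) at chr9:117879636-117881467 and highest at 914 bp before the TSS. SMOC1, a calcium-binding protein of basement membranes, had 6 MAK683 peaks and none in DMSO, the tallest with 18 tags (0.985 RPM) and highest at 1674 bp before the TSS used, in an intron of a longer transcript. Its paralog SMOC2 had 13 and 20 tags, a log2 ratio of 0.48 (-0.60 to 1.61). FN1 (fibronectin) had 12 tags (0.723 RPM) in DMSO and 26 tags (1.42 RPM) in MAK683, a ratio of 0.98 (-0.06 to 2.099). SPARC, a collagen-binding glycoprotein, had 33 and 28 tags.

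TINAGL1, a tubulointerstitial nephritis antigen-like protein, had the lowest ratio, -1.79 (-3.26 to -0.51), from 22 tags (1.325 RPM) in DMSO to 7 tags (0.383 RPM) in MAK683. The DMSO peak had its summit 3813 bp into the gene and only its edge reached the window. With the summit required to lie within 3 kb, a setting applied to single genes after the values were seen, the ratio was -0.92, between 12 tags at the TSS in DMSO and the same 7 tags, so that TINAGL1 no longer counted as halved.

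**Figure D3:**
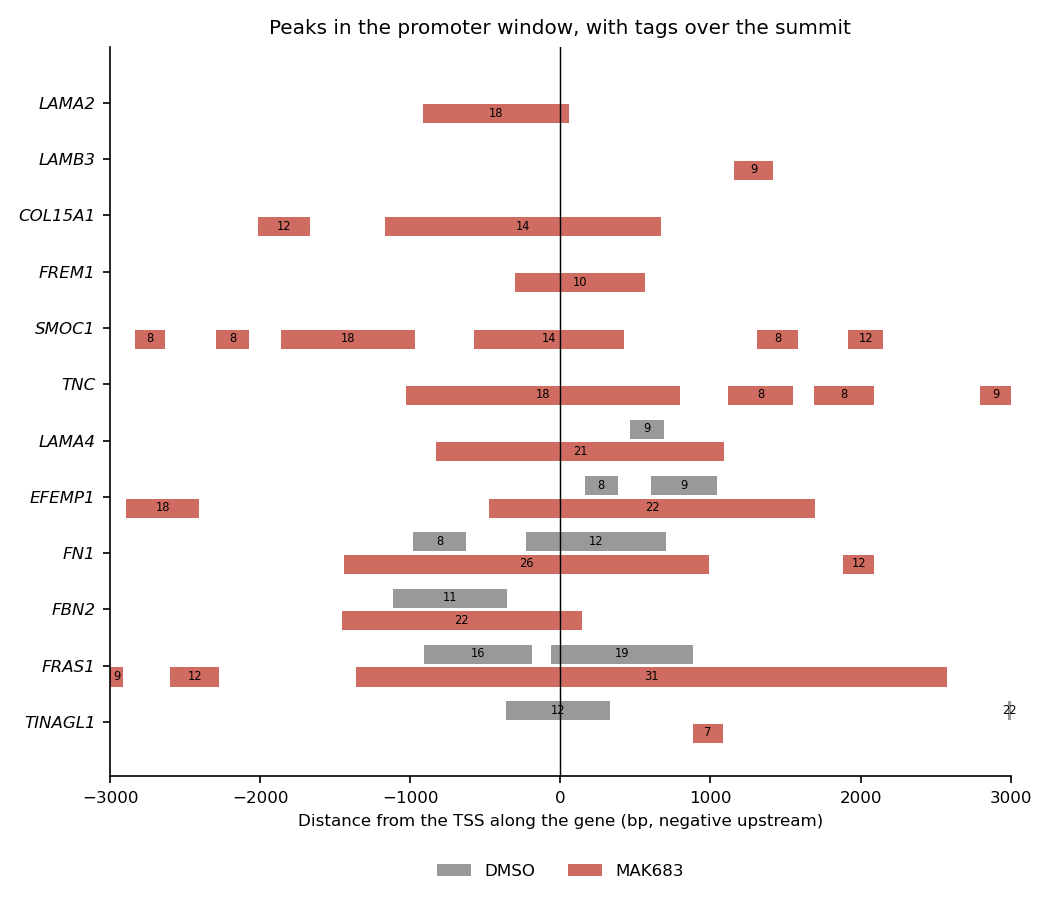
Peaks in the window from 3 kb upstream to 3 kb downstream of the TSS (x axis, bp along the gene) for 12 genes, with DMSO in grey, MAK683 in red and the tags over each summit written on the bar; bars end at the window's edge. The first 6 genes have red bars only, and LAMA4, EFEMP1 and FRAS1 have a MAK683 bar that spans their DMSO peaks.

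Each member's tallest summit lay closer to its own TSS than to that of any other protein-coding gene. The summits were within 1 kb of the TSS for 25 members in DMSO and 28 in MAK683. In 28 of the 32 members with both peaks, the tallest peaks of the 2 libraries overlapped, with peaks tied for tallest counted alike. The exceptions were COL18A1, FBLN2, FBLN5 and TINAGL1, where the ratio compares different sites of 1 promoter region.

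Part of each promoter window lay inside peaks, be it 1 wide peak or several. Peaks covered 76025 bases of the members' windows in DMSO and 95286 in MAK683, a ratio of 1.25, against 0.917 over all protein-coding genes. More of the window was covered in MAK683 for 21 of the 38 members with a peak, beside 32.0% of all genes. Coverage was higher in MAK683 at LAMB1 (1930 to 4596 bases), FRAS1 (1673 to 4355), NPNT (914 to 3628), SMOC2 (1014 to 3747) and FN1 (1288 to 2646). By contrast, the fibrillin, elastin and LTBP windows went from 23565 to 18620 bases, with LTBP2, LTBP3 and LTBP4 all less covered. At LAMB1 the bases came from 1 peak in DMSO and 3 in MAK683, and the tallest peak was 1930 bp long in DMSO and 2273 bp in MAK683. Covered bases depend on where each library's peak calling stops, and the MAK683 library had more tags and more peaks. Their part in these values was not tested.

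**Figure D4:**
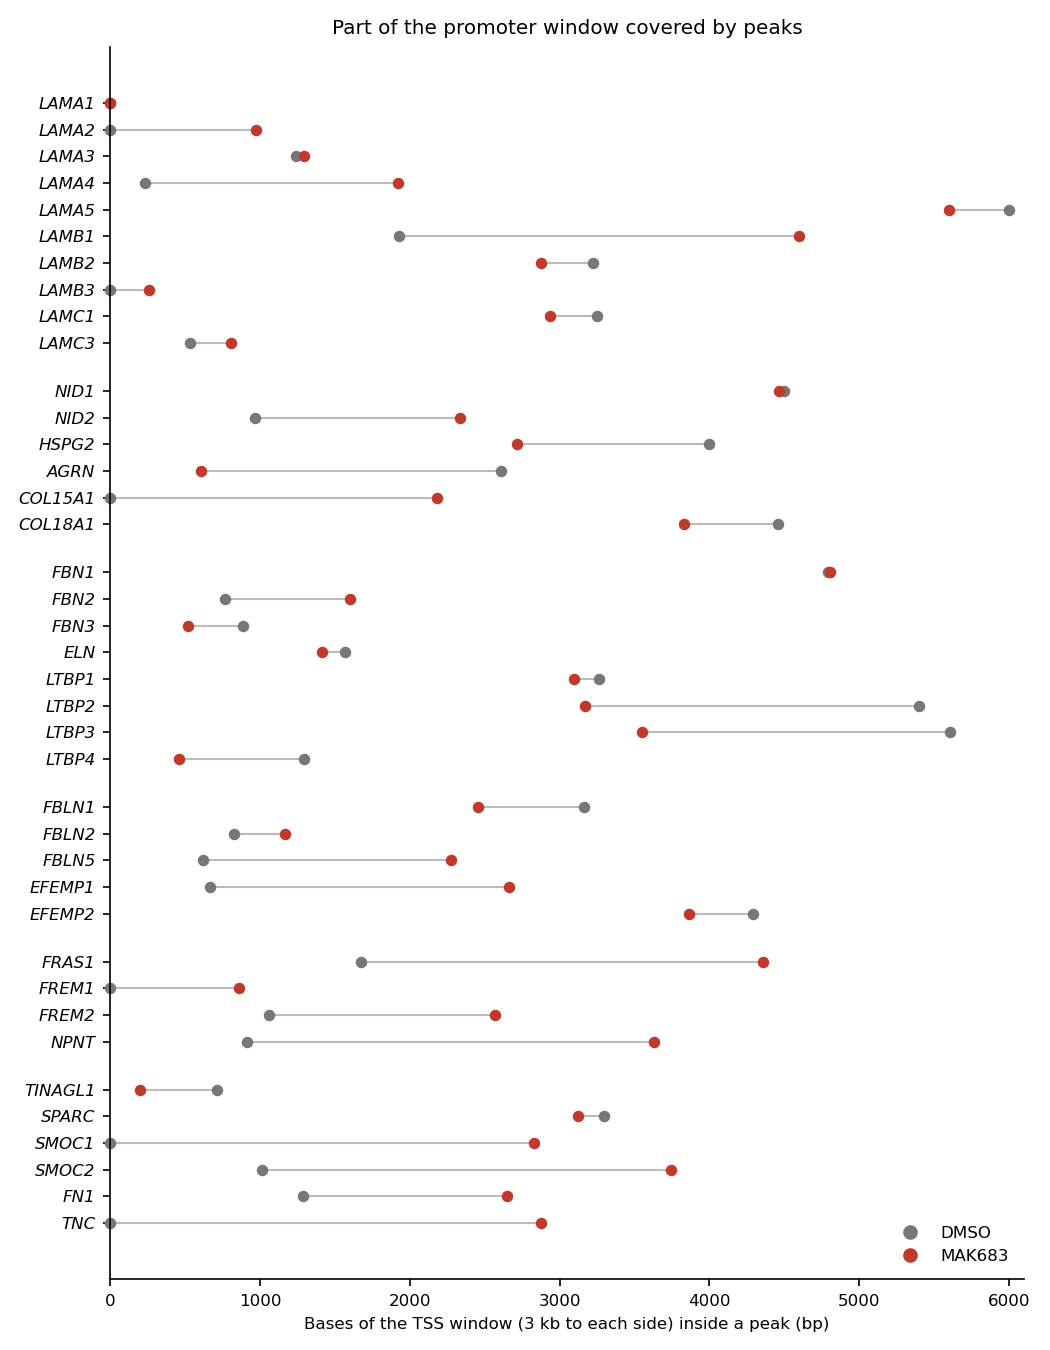
Bases of the window of 3 kb to each side of the TSS that lay inside a peak (x axis, bp) for each of the 39 genes in DMSO (grey) and MAK683 (red), in the order of the role groups; a line joins the 2 libraries. All 4 genes of the Fraser complex and nephronectin have the red point to the right, whereas LTBP2 and LTBP3 have it to the left.

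A further TSS more than 6 kb from the one used was read for 10 members. SMOC1 is not among them, although its annotated gene begins upstream of the TSS used, at chr14:70320848 against 70346133. No values are given for that start. LTBP1 had a peak of 13 tags at its further TSS, 187.6 kb downstream, in MAK683 and none in DMSO. FREM1 had one of 9 tags, 130.9 kb downstream, also in MAK683 only. At LTBP3 the further TSS, 17.68 kb away, was the taller one, with 48 tags (2.89 RPM) in DMSO and 31 tags (1.70 RPM) in MAK683, a log2 ratio of -0.77 (-1.47 to -0.09). LTBP4 had 17 and 16 tags there, and LAMA2, LAMA3, COL18A1, FBN2, FBLN2 and TNC had no peak at their further TSS in either library.

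Away from promoters, the members' genes held 159 peaks in DMSO and 398 in MAK683, a ratio of 2.50, against 60829 and 73371 peaks and a ratio of 1.21 over all protein-coding genes. LAMA2 went from 6 peaks to 47, FRAS1 from 0 to 29, FBN2 from 0 to 26, LTBP1 from 2 to 26 and LAMA4 from 1 to 23. COL18A1 went from 28 to 16, HSPG2 from 16 to 8 and LAMC1 from 8 to 2. Long genes hold more such peaks, and 18 members span at least 100 kb. In those the ratio was 3.39, against 1.56 over 3666 genes of that length. The count differed with the promoter. Promoter classes were drawn from the same 2 libraries as the counts and are not independent of them. All genes sorted this way also split (4.51 against 0.768). Only the members' values beside those of all genes in the same class are therefore to be read. The 19 members that were higher in MAK683 or had a promoter peak there only held 38 gene-body peaks in DMSO and 272 in MAK683 (ratio 7.16), against 4.51 for all genes of that kind. That comparison is not matched for gene length. For the 10 of these members of at least 100 kb the ratio was 14.86 against 6.09. For the 9 under 100 kb it was 2.67 against 2.57, nearly the same as for all genes. The 19 members with lower promoters held 121 and 126 (ratio 1.04), against 0.768. By length, their ratios were 1.1 against 0.851 at 100 kb or more and 0.961 against 0.701 under 100 kb. The peaks were low. Of at least 1 RPM, there were 13 in DMSO and 7 in MAK683, a ratio of 0.54 against 0.557 over all genes, so that the direction turned with this minimum.

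Some gene-body peaks stood at nearly the same distance from the TSS in both libraries. The tallest of COL15A1, 31199 bp from the TSS in DMSO and 31213 bp in MAK683, had 24 tags in DMSO and 28 in MAK683, while its promoter had a peak in MAK683 only. That of LAMB3, at 24595 and 24606 bp, had 23 and 27 tags. That of LTBP2 had 23 tags in DMSO and 39 (2.13 RPM) in MAK683, the tallest gene-body peak of any member in that library.

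**Figure D5:**
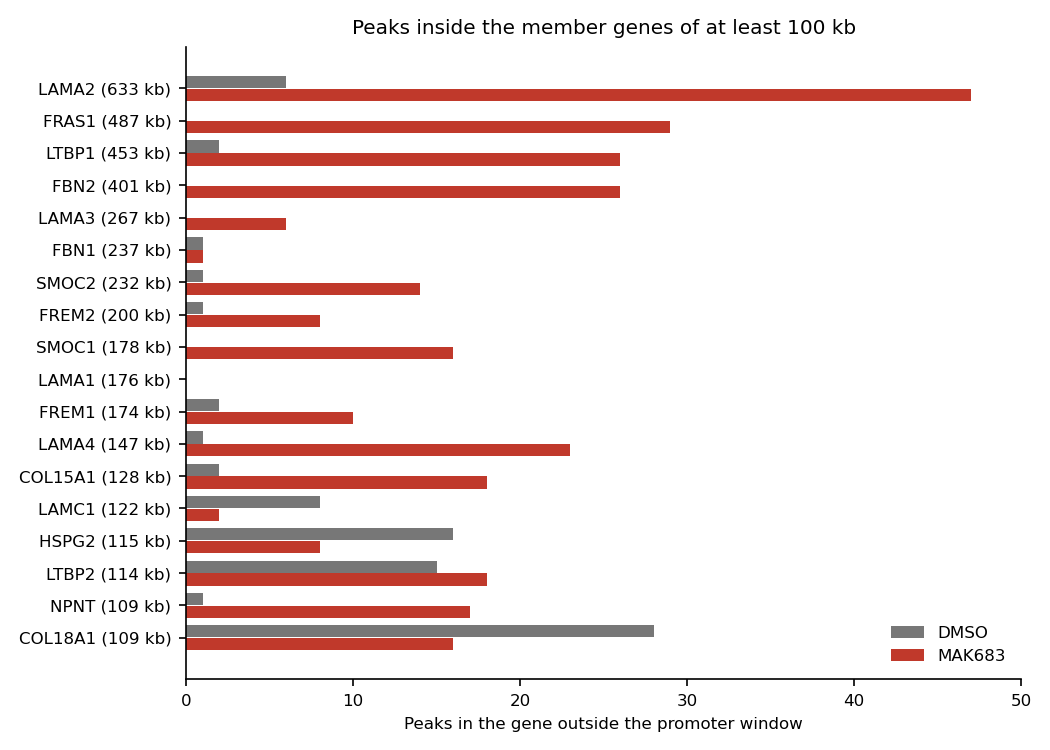
Number of peaks inside the gene but outside the promoter window (x axis) in DMSO (grey) and MAK683 (red) for the 18 members of at least 100 kb, the longest at the top with its length in brackets. LAMA2, FRAS1, LTBP1 and FBN2 have 26 to 47 peaks in MAK683 and 6 or fewer in DMSO, while COL18A1, HSPG2 and LAMC1 have fewer in MAK683.

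The promoters of the set were rich in GC. In the window from 250 bases before to 50 after the TSS, median GC content was 72% for the members and 63.7% for all protein-coding genes. The 6 genes with a peak only in MAK683 had a median of 59.3% and a ratio of observed to expected CpG of 0.574, against 74.7% and 0.847 for the 19 members with lower promoters in MAK683. The GC box was found in 32 members (82.1%) against 60.9% of all promoters, the CCAAT box in 8 (20.5%) against 35.9%, the TEAD motif in 3 (7.69%) against 11.3%, the TATA box in SMOC1 alone (2.56%) against 9.77%, and the AP-1 motif in 0 against 5.41%.

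A list of 36 other genes of the same matrix, its receptors and its cross-linking enzymes was read in the same way. A promoter peak was listed for 30 in DMSO and 32 in MAK683, 9 were higher and 21 lower in MAK683, and the median log2 ratio was -0.27 (-0.39 to -0.01). No gene was doubled or halved. MFAP5, a microfibril protein, had 11 tags (0.602 RPM) in MAK683 only, and FBLN7, a fibulin, had 10 tags (0.5475 RPM) in MAK683 only. Of 7 laminin receptor genes 1 was higher and 6 lower, with a median of -0.46, the same as that of all genes. Of 7 cross-linking enzyme genes 2 were higher and 5 lower, and of 9 microfibril-associated genes with both peaks 2 were higher and 7 lower. The remaining basement membrane genes had 4 higher and 3 lower of 7 with both peaks, with a median of 0.04.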

How the data were processed

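Chromatin accessibility was measured in 1 G401 library treated with DMSO and 1 treated with MAK683. The study's methods name Trim-galore for trimming the 150-bp paired reads and Bowtie2 for alignment (hg19). The file headers show that the authors ran MACS 2.1.1.20160309 separately for the 2 libraries, at a q-value cutoff of 0.05, without a control or local background, with tags shifted by -100 bp and extended to 200 bp and 1 tag kept per position. The submitters' notes list MACS2 2.1.0 and 2.2.7.1. Alignments were read as single ends, so that tags are reads and not fragments.

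The deposited pileup signal counts whole tags over the summit, unscaled for depth. Fold enrichment, as deposited, is a ratio to the genome-wide background. Further deposited scores, the −log10 p-value and the −log10 q-value, grow with depth, and only the latter was used, as a filter. Pileups were divided by the tags after filtering, times 1000000.

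TSSs came from GENCODE 44 on GRCh37, 1 canonical transcript per gene. A gene was called doubled or halved at a log2 ratio of at least 1 in size. With 1 library per group no test across samples was possible, PCR duplicates are not independent molecules, and no pseudocount was used. Genes without a peak in one library were counted, not given a ratio. The interval code was tested on simulated data. Values were computed in Python 3.11.15 with scipy 1.17.1 and pandas 2.3.3.

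The members and the list of 36 other matrix genes were chosen with earlier results of these data known. Values are given in full for LAMB1, FBN1, FBN2 and FRAS1, for members doubled or halved or with a peak of at least 10 tags in 1 library only, for the 3 tallest of each library, and for members whose interval excludes 0. Others named were chosen after their values were seen. Alternatives changed the window, the peak chosen, the q-value, the scaling and the treatment of missing peaks.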

Additional observations from a re-analysis of the deposited data

How the results depend on the processing

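Of 183 values recomputed under other settings, 154 kept their side or stayed within their spread, among them the 88 ratios of single genes, 28 moved and 1 reversed. The 88 cover only LAMA4, LAMB1, LAMB2, LAMC1, NID1, FBN1, FBN2, ELN, EFEMP1, FRAS1 and TINAGL1. Settings that picked the same peaks returned the same ratio, as a window of 1 kb did for LAMA4 (1.084). Keeping a side was thus partly fixed in advance. TINAGL1 counted as kept although its ratio went from -1.79 to -0.92 with that window. The members' median log2 ratio lay between -0.33 and 0.01 over all alternatives and stayed within its interval. The split of higher and lower members depended on the scaling. Centred on the all-gene median, 25 were higher, 7 lower, 7 doubled and 1 halved. All genes divide evenly about their own median by definition, ties aside. Without depth scaling 5 members were doubled and 1 halved. Shares of all genes doubled or halved are not given for the alternative settings, so those member counts have no background to be read against. A stricter peak threshold removed low peaks in both libraries. At a −log10 q of at least 10, 20 members had a DMSO peak and 28 a MAK683 peak, 11 a peak only in MAK683 and 3 only in DMSO. Over all genes these were 12586 and 12201, with 831 only in MAK683 and 1216 only in DMSO. Of 17 members with both peaks, 3 were higher (17.6%), against 8.09% of 11370 genes, and 0 were doubled and 1 halved. Of the other matrix genes 1 had a peak only in DMSO and 5 were higher. At a −log10 q of at least 5, 3 members had a peak only in DMSO (637 of all genes), 0 were doubled and 1 was halved. Halved members numbered 1 with the summit within 3 kb, with the TSSs of all basic transcripts and with fold enrichment. The all-gene median was -0.4737 and -0.482 at a −log10 q of 5 and 10, -0.4751 in a window of 1 kb, -0.4813 per 1000000 total tags, -0.4219 with missing peaks at the floor, -0.3919 with fold enrichment, -0.3219 without depth scaling, and -0.4484 with summits nearest to the gene's own TSS, a setting chosen after seeing the data. The ratio of gene-body peaks reversed to 0.5385 at 1 RPM or more. The cause of these shifts was not tested. No paired analysis was possible because each group has 1 library. Depth limits the low promoters most: at 9 tags in DMSO, an observed doubling left an interval that included 0.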
